A study of Mus musculus with 6 samples.

Results

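Natural killer (NK) cells made up 151 of 19230 retained cells from the draining lymph nodes of 3 Pik3cg knockout (KO) and 3 wild-type (WT) mice. They were chosen by their own transcripts: no UMI of Cd3d, Cd3e, Cd3g or Cd79a, and at least 2 of the 6 genes Ncr1, Klrb1c, Klrk1, Gzma, Prf1 and Klre1 detected. A UMI, or unique molecular identifier, marks 1 captured RNA molecule. Retained cells carried the antibody hashtag of a single mouse, at least 500 gene UMIs and at most 10% mitochondrial UMIs. By mouse the NK cells numbered 17, 22 and 13 in KO1, KO2 and KO3, and 53, 21 and 25 in WT1, WT2 and WT3. They were set against 366 T cells with Ccl5 (at least 2 UMIs of Cd3d, Cd3e and Cd3g together, at least 2 of Ccl5, and no Cd79a), called Ccl5 T cells here, and against the other 19079 cells.

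All 6 mice had received 3 immunizations with NP-Ova, a hapten coupled to ovalbumin, emulsified in alum, and the nodes were taken at day 34. KO mice lack Pik3cg, which encodes the catalytic subunit p110 gamma of the lipid kinase PI3K gamma; the controls are wild type. Strain, age, sex and the deleted segment are not given in the sources used here. Cells enriched for switched B cells by negative selection were 70% of the mixture and untouched cells 30%, so the share of NK cells is also set by that selection. The labels do not say from which of these 2 fractions a cell came.

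NK cells are innate lymphocytes that kill infected, transformed or stressed cells with perforin and granzymes and secrete interferon gamma and chemokines. Their activity is set by the balance of activating receptors, such as Ncr1 and Klrk1, and inhibitory ones, such as many Ly49 receptors, which recognise MHC class I. They mature from Il7r- and Cd27-bearing stages to stages with Itgam, Klrg1 and S1pr5 under the T-box factors Eomes and Tbx21. PI3K gamma acts downstream of G-protein-coupled receptors, among them those for chemokines, and in NK cells it works beside PI3K delta.

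The label was checked against genes of other cell types that the rule did not use. It held for T cell genes against Ccl5 T cells and for B cell genes against all other cells. Lists for myeloid, plasmacytoid dendritic and gamma-delta T cells, and for type 1 innate lymphoid cells, relatives of NK cells, set them apart less clearly. Tyrobp, the adaptor DAP12 of activating receptors, was detected in 147 of the 151 cells, and Fcer1g, the adaptor that pairs with Fc and natural cytotoxicity receptors, in 146. By contrast Lyz2, Cd5, Cd6 and Cd8b1 had no UMI in any NK cell. All 10 genes listed for type 2 and type 3 innate lymphoid cells, Il1rl1 among them, were also at 0. Of 13 myeloid genes 9 were at 0, and the sum of the 13 in NK cells was 198 to 226 CPM in KO and 223 to 465 CPM in WT mice. That sum averaged 273 CPM in NK cells, 293 CPM in Ccl5 T cells and 556 CPM in all other cells. Cst3, a member, had 57 UMIs in 40 NK cells. In the same order, 6 plasmacytoid dendritic cell genes summed to means of 213, 165 and 290 CPM. For 7 gamma-delta T cell genes the means were 115, 329 and 22.7 CPM. Of 15 T cell genes outside the rule 12 had UMIs. Their summed level in NK cells was 821 to 1058 counts per 1000000 gene UMIs (CPM) in KO mice and 831 to 851 CPM in WT mice, against 2533 to 3184 CPM in Ccl5 T cells. Summed B cell markers reached 255 to 573 CPM in KO NK cells and 149 to 283 CPM in WT NK cells, against 19327 to 24404 CPM in all other cells. Of 8 genes listed for type 1 innate lymphoid cells, 7 had UMIs. They summed to 199 to 906 CPM in NK cells and 409 to 694 CPM in Ccl5 T cells. Whether some of the 151 cells are of that type was not tested. Scrublet called none of the 151 cells a doublet, and 1 (0.662%, exact 95% interval 0.0168 to 3.63%) carried a productive B cell receptor contig, against 74.9% of the 14107 cells with Cd79a. No NK barcode was shared between the 2 droplet lanes, which are 2 runs of the same mixture, while 360 retained cells had such a barcode. The own hashtag made up a median of 89.8% of the hashtag UMIs of an NK cell.

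Cells just inside and just outside the threshold are given as a description. The 21 cells with exactly 2 of the 6 genes had 2810 CPM of Tyrobp, 1495 of Nkg7 and 79.7 of Cd74, the MHC class II invariant chain. The 56 cells with exactly 1 had 2060 CPM of Tyrobp but 172 of Nkg7, 9562 of Cd74 and 911 of Lyz2, a lysozyme of myeloid cells. A further 54 cells had at least 2 of the 6 genes and no Cd79a but at least 1 Cd3 UMI, and 20 had Cd79a beside at least 2. These were left out by the rule.

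Promoters of 3 genes that define these cells and of 2 that differed between the genotypes are shown, because Runx, T-box, Ets and AP-1 factors known from this lineage bind short motifs. Each is the 250 bases before the RefSeq start (GRCm38.p6), written 5′ to 3′ on the gene's strand, and capitals mark the Runx core TGTGGT or its reverse complement ACCACA. Ncr1, Gzma and Prf1 belong to the rule; Ccl3 and Nkg7 are described below in the genotype comparison.
Ncr1, chr7:4337465-4337714, plus strand: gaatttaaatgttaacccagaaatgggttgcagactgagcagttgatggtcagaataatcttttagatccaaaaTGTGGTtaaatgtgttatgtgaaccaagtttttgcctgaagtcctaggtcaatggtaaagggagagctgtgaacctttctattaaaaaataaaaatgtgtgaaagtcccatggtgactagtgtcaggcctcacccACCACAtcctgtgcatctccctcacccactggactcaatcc
Gzma, chr13:113100982-113101231, minus strand: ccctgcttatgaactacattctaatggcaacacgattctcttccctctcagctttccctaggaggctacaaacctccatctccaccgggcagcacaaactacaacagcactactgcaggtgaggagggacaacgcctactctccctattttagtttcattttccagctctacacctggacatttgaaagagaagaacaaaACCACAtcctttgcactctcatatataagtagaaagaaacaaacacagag
Prf1, chr10:61297586-61297835, plus strand: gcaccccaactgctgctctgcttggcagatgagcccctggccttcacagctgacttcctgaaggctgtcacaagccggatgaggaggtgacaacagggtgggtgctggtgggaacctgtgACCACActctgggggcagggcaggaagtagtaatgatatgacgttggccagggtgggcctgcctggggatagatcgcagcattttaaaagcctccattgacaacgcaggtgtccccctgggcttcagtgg
Ccl3, chr11:83649379-83649628, minus strand: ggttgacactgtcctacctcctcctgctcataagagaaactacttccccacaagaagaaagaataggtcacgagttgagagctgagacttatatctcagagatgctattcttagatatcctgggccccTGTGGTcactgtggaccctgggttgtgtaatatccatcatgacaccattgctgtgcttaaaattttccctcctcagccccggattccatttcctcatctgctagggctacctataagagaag
Nkg7, chr7:43436888-43437137, plus strand: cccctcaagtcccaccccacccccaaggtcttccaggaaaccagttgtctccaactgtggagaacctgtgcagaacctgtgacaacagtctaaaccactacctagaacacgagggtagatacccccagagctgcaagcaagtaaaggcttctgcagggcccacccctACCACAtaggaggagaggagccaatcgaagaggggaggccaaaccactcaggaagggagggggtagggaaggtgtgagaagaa

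All 6 rule genes had a promoter entry, and all 6 held the Runx core on one strand or the other in those 250 bases (Klre1 at 1 of its 2 starts). Among all 32851 promoter entries, 14% held it. That share is per entry, whereas each of the 6 genes was counted if any of its starts had the core. All 5 shown hold it; of the others searched, Xcl1 held it too, and Foxn3, Fcer1g, Eomes, Tbx21 and Il7r did not. In Ncr1 the capitals begin 176 and 41 bases before the start, in Gzma 50, in Prf1 130, in Ccl3 122 and in Nkg7 83. The T-box motif GGTGTG, read on both strands, was in 16.3% of all promoters and, of the 5 shown, in Nkg7 only. The Ets motif AGGAAG was in 29.5% of all promoters and, of the 5 shown, in Prf1 and Nkg7, and the AP-1 motif TGANTCA was in 6.75% of all and in none of the 5 shown. No match of these motifs overlapped a Runx match in the 5. Runx3, the family member most tied to cytotoxic lymphocytes, stood at a mean of 145 CPM in NK cells and 182 CPM in Ccl5 T cells. A match is a stretch of letters and says nothing about binding.

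Against Ccl5 T cells, which share cytotoxic genes with them, NK cells had higher levels of Ly49 and other lectin-like receptors and of the adaptor Tyrobp. These levels are a description without a test, since the same transcripts chose the cells. Of 1531 genes averaging 100 CPM or more in either population, 346 (22.6%) were higher in NK cells in all 6 mice and 158 (10.3%) lower, rule genes included, with a median log2 ratio of 0.24 (on CPM + 10). Klra4, encoding the activating receptor Ly49D, had 364, 486 and 651 CPM in NK cells of the KO mice and 752, 613 and 432 CPM in those of the WT mice, against a mean of 0.710 CPM in Ccl5 T cells. Its log2 ratio was 5.68 ± 0.50 (SD over 6 mice). Klra8, the Ly49H receptor that recognises a cytomegalovirus protein, had a mean of 624 CPM against 4.18 CPM in Ccl5 T cells. Both were near absent from T cells, whereas Klra7, encoding the inhibitory Ly49G, was shared: 524 CPM in NK cells and 155 CPM in Ccl5 T cells.

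Adaptors followed the receptors. Tyrobp had 2943 to 3315 CPM in KO NK cells and 3092 to 4423 CPM in WT NK cells, against 109 CPM in Ccl5 T cells. Fcer1g had a mean of 2618 CPM against 256 CPM, and Syk, the kinase recruited by both adaptors, 119 CPM against 3.02 CPM. Hcst, the DAP10 adaptor of Klrk1, did not separate the populations, at 1126 CPM and 1081 CPM. Zap70 and Lat, the kinase and scaffold of the T cell receptor, stood lower in NK cells of 5 and 6 of the 6 mice, with 71.9 and 66.1 CPM against 99.3 and 189 CPM.

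Among killing genes, Gzma, used by the rule, stood at 6790 CPM against 34.4 CPM in Ccl5 T cells. Gzmb, encoding granzyme B, was outside the rule and had 525 ± 416 CPM (SD, n = 6) against 14.4 CPM. Nkg7, a granule membrane protein needed for degranulation, had 2705 CPM against 893 CPM, and Ctsw, a cathepsin of cytotoxic lymphocytes, 586 CPM against 378 CPM. All 4 were higher in NK cells of every mouse. Of the 17 granule genes listed, all had UMIs in NK cells, 5 were higher in all 6 mice and 0 lower in all 6. Of genes of at least 100 CPM, 22.6% were higher in all 6. The listed genes were counted at any level, without that floor. The rest of the list varied: Cst7 was higher in NK cells of 4 mice, and Gzmm averaged 14.8 CPM against 33.9 CPM in Ccl5 T cells.

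Some transcription factors and homing receptors also differed. Of 17 transcription factor genes listed, 6 were higher and 2 lower in NK cells of all 6 mice, and of 17 migration genes 8 and 2. Among genes of at least 100 CPM the shares were 22.6% and 10.3%. Listed genes, also those of cytokine receptors below, were counted without that floor. Ikzf2 was lower in all 6 mice, with 53.1 CPM against 349 CPM in Ccl5 T cells, and Ets1 was level, at 461 CPM and 433 CPM. Zeb2, a factor needed for terminal NK maturation, averaged 280 CPM against 15.9 CPM, Id2, which restrains E proteins in innate lymphocytes, 382 CPM against 74.4 CPM, and Tbx21 166 CPM against 43.8 CPM. Irf8 averaged 227 CPM in NK cells and 20.5 CPM in Ccl5 T cells. Ccr2, a receptor for monocyte chemoattractants, averaged 185 CPM and 8.64 CPM, and Itga2, the CD49b integrin used to identify mouse NK cells, 136 CPM and 10.9 CPM. S1pr1, the sphingosine phosphate receptor that drives T cell exit from nodes, was lower in NK cells, with 23.8 CPM against 140 CPM. Of 16 cytokine receptor genes listed, 6 were higher and 2 lower in NK cells of all 6 mice, and Il2ra, Ifngr2 and Il6ra were at 0. The median log2 ratio of this list was 0.10, against 0.24 for the genes of at least 100 CPM. Individually, Il18rap had 371 CPM against 76.2 CPM, Il12rb2 93.0 CPM against 6.80 CPM, and Il2rb 693 CPM against 330 CPM.

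Leaving out the genes of both selection rules, immunoglobulin, receptor segment, mitochondrial and predicted genes, less familiar genes stood beside these in the 12 largest ratios among genes of at least 100 CPM in either population and 1 direction in all 6 mice. Of the rule genes, Gzma, Ncr1 and Klrb1c would have ranked among them, at 7.81, 4.31 and 3.38 on the log2 scale. Adamts14, a metalloproteinase of procollagen, was detected in 65 of the 151 NK cells, at 214 CPM against 3.06 CPM. Car2, a carbonic anhydrase, averaged 171 CPM against 8.07 CPM, and Aoah, which inactivates bacterial lipopolysaccharide, 136 CPM against 2.21 CPM. Dscam, a cell adhesion gene known from neurons, averaged 330 CPM but was found in 27 cells. Klri2 and Klrb1b, lectin-like receptor genes of the NK complex on chromosome 6, and Tyrobp, Klra4, Klra8, Gzmb, Zeb2 and Ccr2 complete the 12. With the same genes left out (Cd3d, Cd3e and Cd3g, at 0 by the rule, among them), the 12 lowest ratios were those of Ifi27l2a, Cd8b1, Trac, Themis, Cd8a, Bcl11b, Fam169b, Actn1, Nsg2, Tmem108, Rgs10 and S1pr1. Trac, the constant region of the T cell receptor alpha chain, had 3 UMIs in NK cells in all, and Themis, a T cell selection gene, had 0. Ifi27l2a, an interferon-inducible gene, had 12 UMIs in NK cells (26.2 CPM) against 841 CPM in Ccl5 T cells and 1235 CPM in all other cells.

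**Figure D1:**
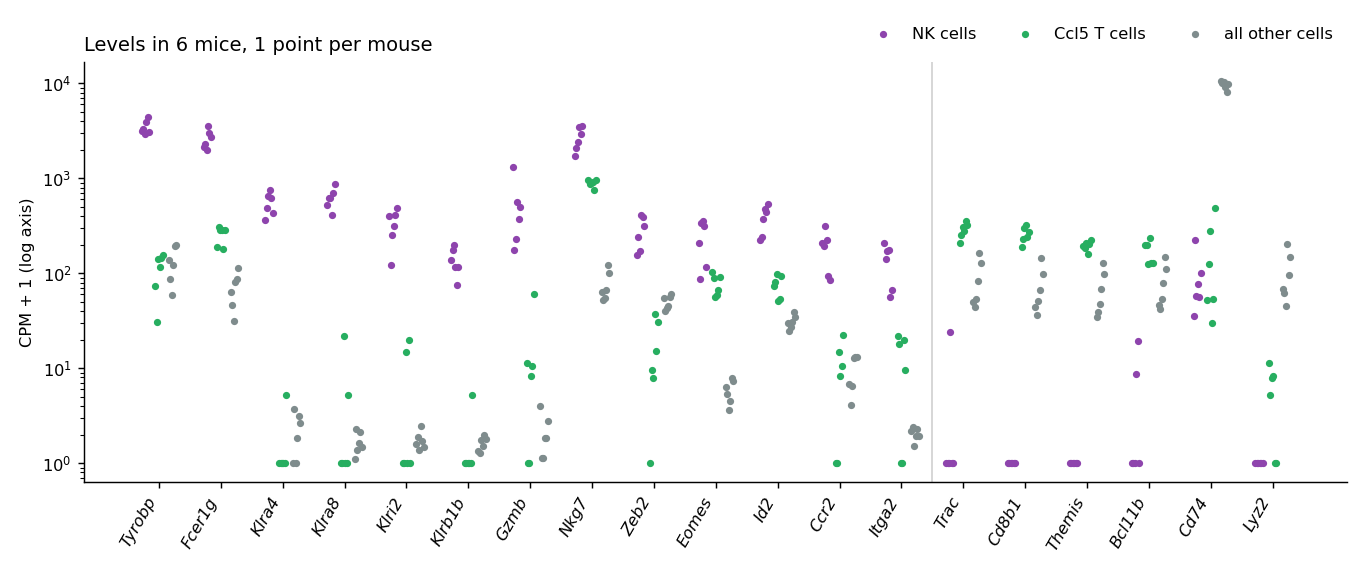
Levels of 19 genes in NK cells, Ccl5 T cells and all other cells, in CPM plus 1 on a log axis, with 1 point for each of the 6 mice. Genes left of the grey line are NK genes outside the rule and those right of it mark T cells, antigen presentation or myeloid cells: Tyrobp lies at 2943 to 4423 CPM in NK cells, and Cd8b1, Themis and Lyz2 lie at 0.

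The NK cells were not uniform. Ly49 genes were expressed in combinations: of the 8 detected, 29 cells had none, 22 had 1, 45 had 2, 36 had 3, 16 had 4 and 3 had 5. The medians of these 6 classes ran from 2040 to 2709 UMIs per cell. The class without any had the highest, 2709 UMIs. Granzyme A varied widely: 35 cells had no Gzma UMI, the median was 14 UMIs per cell, and the highest cell had 177.

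A group of 27 cells carried Il7r, the interleukin-7 receptor chain of immature NK cells and other innate lymphoid cells. Summed, they had 535 CPM of Gzma, 11.9 of Gzmb, 59.4 of Prf1 and 35.6 of Ccl4, against 10113, 695, 518 and 1052 CPM in the 124 cells without Il7r. They also had less Klra4, at 71.3 CPM against 718, and less Eomes, at 71.3 CPM against 299. Emb, an adhesion molecule of the immunoglobulin family, was higher, at 546 CPM against 148, as were Ltb, encoding lymphotoxin beta, at 701 CPM against 235, and Cd160, at 178 CPM against 54.7. Ncr1, one of the genes that chose the cells, stood at 570 CPM and 422 CPM. Tbx21 was at 166 CPM and 187 CPM. The Il7r cells were not shallower, with medians of 2831 and 2200 UMIs. These sums pool cells of 6 mice and have no replicate error. In the group without Il7r, 1 WT1 cell held 137 of the 327 Ccl4 UMIs and 1 KO1 cell 74 of the 216 Gzmb UMIs; without these 2 cells the group had 612 CPM of Ccl4 and 472 CPM of Gzmb.

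At the other end, 68 cells carried at least 1 of Itgam, Klrg1, S1pr5, Cma1 and Cx3cr1, genes of mature NK cells. They had 13560 CPM of Gzma, 986 of Gzmb, 788 of Prf1 and 1700 of Ccl4, against 4287, 248, 167 and 240 CPM in the 83 cells without. Without the same 2 cells, both of which carried a maturation gene, the first group had 868 CPM of Ccl4 and 563 CPM of Gzmb. Only 3 cells had both a maturation gene and Il7r. Xcl1, the chemokine that attracts cross-presenting dendritic cells, was at 725 CPM in Il7r cells and 328 CPM in the others.

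Both states were then counted in each mouse. Il7r was detected in 3 of 17, 7 of 22 and 5 of 13 NK cells of KO1, KO2 and KO3, and in 3 of 53, 3 of 21 and 6 of 25 of WT1, WT2 and WT3. That is 29.3% ± 10.6 in KO and 14.6% ± 9.18 in WT mice (SD, n = 3 each), with overlap (two-sided exact permutation p = 0.2). A maturation gene was detected in 5, 8 and 2 NK cells of KO1, KO2 and KO3, or 29.4, 36.4 and 15.4%, and in 32, 10 and 11 of WT1, WT2 and WT3, or 60.4, 47.6 and 44.0%. The genotypes did not overlap, at 27.1% ± 10.7 in KO and 50.7% ± 8.60 in WT (exact permutation p = 0.1, the smallest that 3 against 3 mice allow). The median NK cell had 2486 to 2904 UMIs in the KO mice and 2154 to 2355 in the WT mice. Thinned to 1400 UMIs per cell, which left out 3 KO and 13 WT cells, the shares were 15.7% ± 7.92 in KO and 37.2% ± 11.96 in WT, without overlap (exact permutation p = 0.1). For comparison, 0.716% of cells with Cd79a had a UMI of a maturation gene and 1.24% one of Il7r, at a median of 2080 UMIs. Whether those cells express the genes themselves was not tested. The 5 maturation genes are part of a list of 10 and were picked, like the Il7r split, after values were seen.

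**Figure D2:**
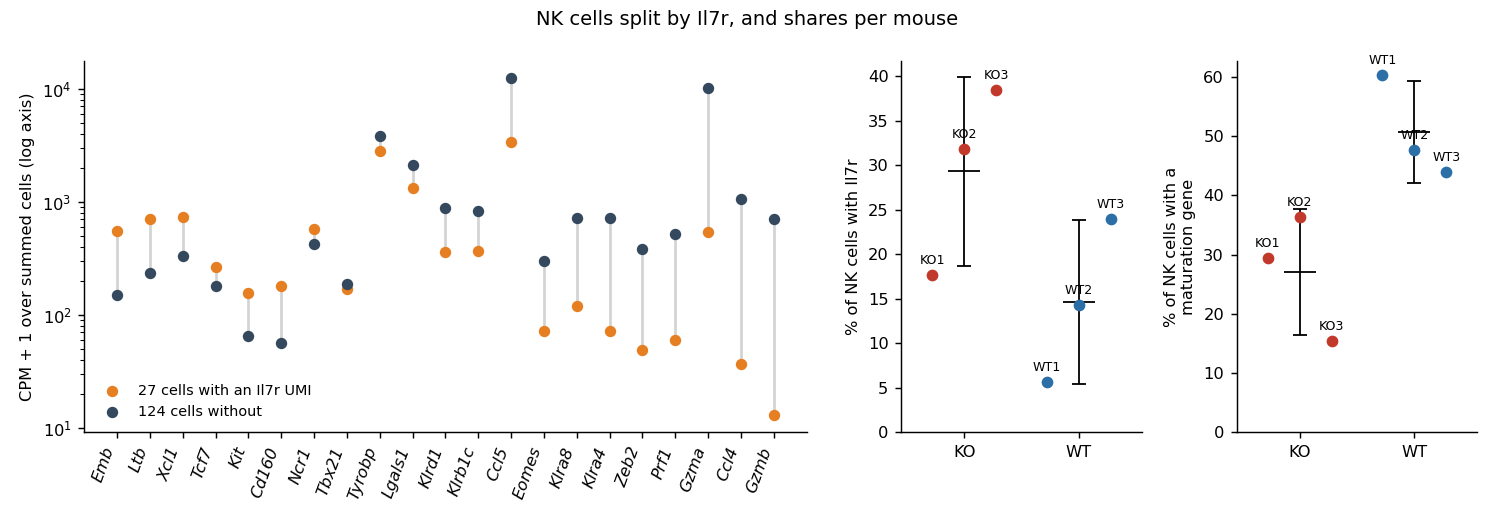
Left, summed levels of 21 genes in the 27 NK cells with an Il7r UMI and in the 124 without, in CPM plus 1 on a log axis. Right, the percentage of NK cells per mouse with an Il7r UMI and with a UMI of Itgam, Klrg1, S1pr5, Cma1 or Cx3cr1, with mean and SD of 3 mice: for the maturation genes the KO mice lie at 15.4 to 36.4% and the WT mice at 44.0 to 60.4%.

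The share of NK cells was lower in each KO mouse than in each WT mouse, and this depended on the denominator and, in size, on 1 WT mouse. NK cells were 0.601, 0.543 and 0.511% of retained cells in KO1, KO2 and KO3, and 1.64, 0.701 and 0.697% in WT1, WT2 and WT3. The groups did not overlap (0.552% ± 0.0455 against 1.01% ± 0.545, difference -0.462 percentage points, two-sided exact permutation p = 0.1, or 0.2 adjusted over the 4 denominators). WT1 stood far above the other 2 WT mice, and without it the difference was -0.148 points. In lane 1 alone the means were 0.593% in KO and 0.947% in WT, without overlap, and in lane 2 alone 0.507% and 1.08%, with overlap (exact permutation p = 0.3). The exact 95% intervals of counting overlapped for the other mice, such as 0.350 to 0.960% in KO1 and 0.435 to 1.07% in WT2.

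T cells moved with this result: they were 13.4 to 14.5% of retained cells in KO mice and 19.3 to 31.7% in WT mice. Ccl5 T cells did not, at 2.04% ± 0.211 of retained cells in KO and 1.77% ± 0.357 in WT mice, with overlap (exact permutation p = 0.5). Among T cells their share was 14.7% ± 2.07 in KO and 7.28% ± 0.681 in WT mice, without overlap (exact permutation p = 0.1). Of cells without Cd79a, NK cells were 3.04, 2.74 and 2.32% in the KO mice and 5.76, 1.75 and 2.31% in the WT mice (exact permutation p = 1). Per 100 T cells they were 4.49, 3.89 and 3.53 in KO and 8.49, 2.21 and 3.08 in WT mice, and without WT1 the mean difference was +1.33, with KO higher. Per 100 Ccl5 T cells they were 26.98, 26.2 and 28.3 in KO, against 118, 33.3 and 38.5 in WT mice, without overlap (exact permutation p = 0.1). Fewer NK cells in a node and more of the other cells cannot be told apart from these shares, nor from a difference in how the 2 fractions were mixed for each mouse.

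**Figure D3:**
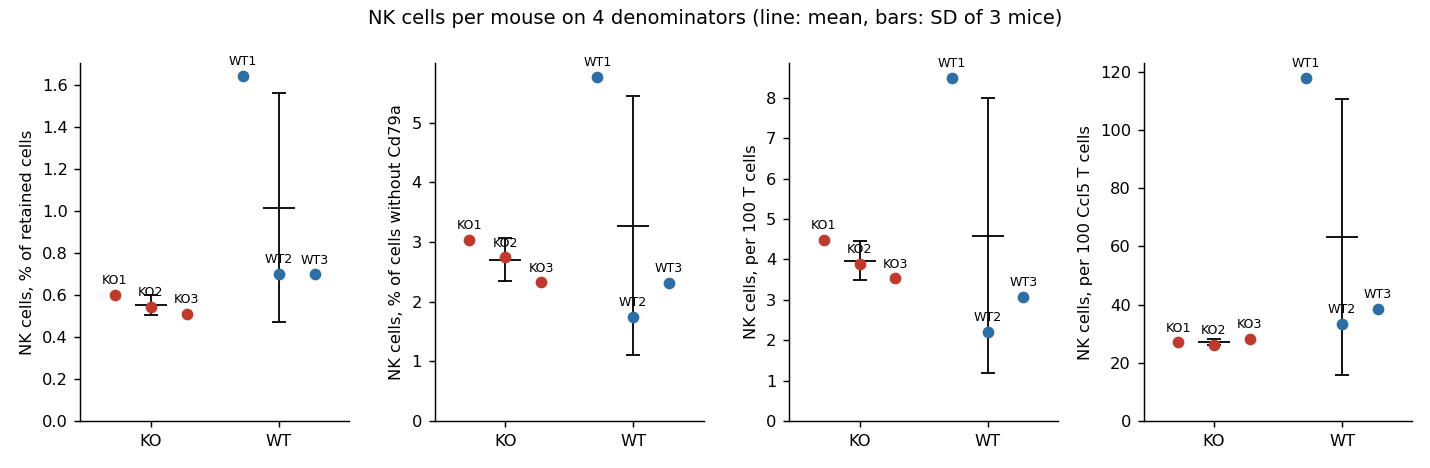
NK cells per mouse on 4 denominators, KO left of WT, with the mean and SD of 3 mice. WT1 is the highest mouse in all 4 panels, and the genotypes overlap for cells without Cd79a and for T cells.

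Within NK cells, 2 inflammatory chemokine genes and 2 killing genes passed the test as lower in KO mice, but only the call of Ccl3 held whichever mouse was left out. Prf1, a killing gene among them, also helped to choose the cells. UMIs were summed per mouse (35335 to 57675 in KO and 53809 to 130360 in WT mice) and 779 genes passed the filter on low counts. In edgeR's quasi-likelihood test 5 of them, or 0.642%, differed at a Benjamini-Hochberg adjusted p under 0.05: Ccl3, Ccl4, Prf1, Nkg7 and Foxn3, all lower in KO. None was higher, while 46 higher genes (5.91%) and 49 lower ones (6.29%) had an unadjusted p under 0.05, together 12.2%. The median log2 fold change of all tested genes was -0.03. In bulk sums of this kind, fewer cells of a state and less RNA per cell cannot be told apart.

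Ccl3, which encodes the macrophage inflammatory protein MIP-1 alpha (chr11:83647844-83649355, GRCm38), had 86.7, 86.8 and 28.3 CPM in KO1, KO2 and KO3, against 598, 483 and 681 CPM in WT1, WT2 and WT3. The groups lay far apart, and the edgeR fit gave a log2 fold change of -2.99 ± 0.35 (SE) at an adjusted p of 0.000142. It rested on 11 UMIs in the KO mice and 145 in the WT mice. Ccl3 was detected in 2, 5 and 1 NK cells of the KO mice, 14.1% ± 7.78 of the cells, and in 25, 8 and 13 of the WT mice, 45.8% ± 7.06. No WT mouse owed it to a single cell: the highest cell had 11 of the 78 UMIs of WT1. Among cells with Cd79a, 0.411% had a Ccl3 UMI. It was the only call of the 5 that held whichever mouse was left out. In lane 1 alone the log2 fold change was -2.66 (edgeR adjusted p = 0.0503), and in lane 2 alone it was -3.31 (8.42e-05).

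Ccl4, its neighbour on the chromosome (chr11:83662584-83664683) and likewise an inflammatory chemokine gene, had 364, 69.4 and 28.3 CPM in the KO mice, against 1672, 762 and 748 CPM in the WT mice. Its log2 fold change was -2.71 ± 0.46 (edgeR adjusted p = 0.00873). In WT1 a single cell held 137 of 218 Ccl4 UMIs. With that cell and the cell of most Gzma UMIs removed, a choice made after values were seen, the log2 fold change was -2.33 (edgeR adjusted p = 0.000812). Without WT1 the adjusted p was 0.0924 at a log2 fold change of -2.13, without WT3 0.138 at -2.87, and with DESeq2 0.641 at -2.70. By lane it was -1.62 in lane 1 (edgeR adjusted p = 0.514) and -4.01 in lane 2 (2.57e-05); the difference between lanes was not tested.

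Prf1, encoding the pore-forming protein perforin (chr10:61297833-61304680), had 312, 156 and 198 CPM in the KO mice, against 560, 502 and 532 CPM in the WT mice (log2 fold change -1.24 ± 0.26, edgeR adjusted p = 0.0427). In KO1, 13 of its 18 UMIs came from 1 cell. With that cell and the WT1 cell of highest Ccl4 removed, a choice made after values were seen, its log2 fold change was -1.87 (edgeR adjusted p = 0.000812). Prf1 also helped to choose the cells; with the choice made on the 4 receptor genes alone, its log2 fold change was -1.26 at an adjusted p of 0.0545. Nkg7 (chr7:43437073-43438249) had 1699, 2065 and 2434 CPM in the KO mice, against 3506, 2955 and 3574 CPM in the WT mice (-0.72 ± 0.15, adjusted p = 0.0427). Foxn3, a forkhead repressor gene, had 121, 139 and 0 CPM in the KO mice, against 422, 335 and 382 CPM in the WT mice (-1.95 ± 0.42, adjusted p = 0.0427). Each of these 3 calls was lost without certain mice. For Prf1, Nkg7 and Foxn3 the adjusted p was 0.302, 0.238 and 0.302 without WT1, 0.213, 0.244 and 0.213 without WT3, and 0.18, 0.139 and 0.0627 without KO2. Nkg7 was also lost without KO1 (0.183), and Prf1 without KO3 (0.0598) or WT2 (0.0587). Prf1 had a log2 fold change of -0.39 in lane 1 and -2.90 in lane 2, and Nkg7 -0.34 and -1.22; Foxn3 has no value by lane. With the 27 Il7r cells removed, the adjusted p was 0.0562 for Prf1 (log2 fold change -1.10), 0.0856 for Nkg7 (-0.68) and 0.019 for Foxn3 (-1.98).

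Lgals1 and Gzma followed just outside the threshold, both with an edgeR adjusted p of 0.0533. Lgals1, encoding galectin-1, had 1300, 937 and 1755 CPM in the KO mice, against 2539, 2676 and 1745 CPM in the WT mice. Gzma had 6710, 3332 and 2972 CPM in the KO mice, against 12565, 7266 and 7895 CPM in the WT mice (log2 fold change -1.08). Like Prf1, Gzma helped to choose the cells. With the choice made on the 4 receptor genes alone, its log2 fold change was -1.14 (edgeR adjusted p = 0.0815). The medians per cell were 6, 3 and 2 Gzma UMIs in the KO mice and 30, 13 and 10 in the WT mice. A cell of KO1 held 177 of that mouse's 387 Gzma UMIs and 74 of its 76 Gzmb UMIs. Gzmb was detected in 11.8, 18.2 and 23.1% of NK cells of the KO mice and in 43.4, 42.9 and 28% of those of the WT mice. Its summed level gave a log2 fold change of 0.31 ± 0.47 (adjusted p = 0.834), and with that KO1 cell and the WT1 cell of highest Ccl4 removed it was -1.83 at an adjusted p of 0.0147.

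**Figure D4:**
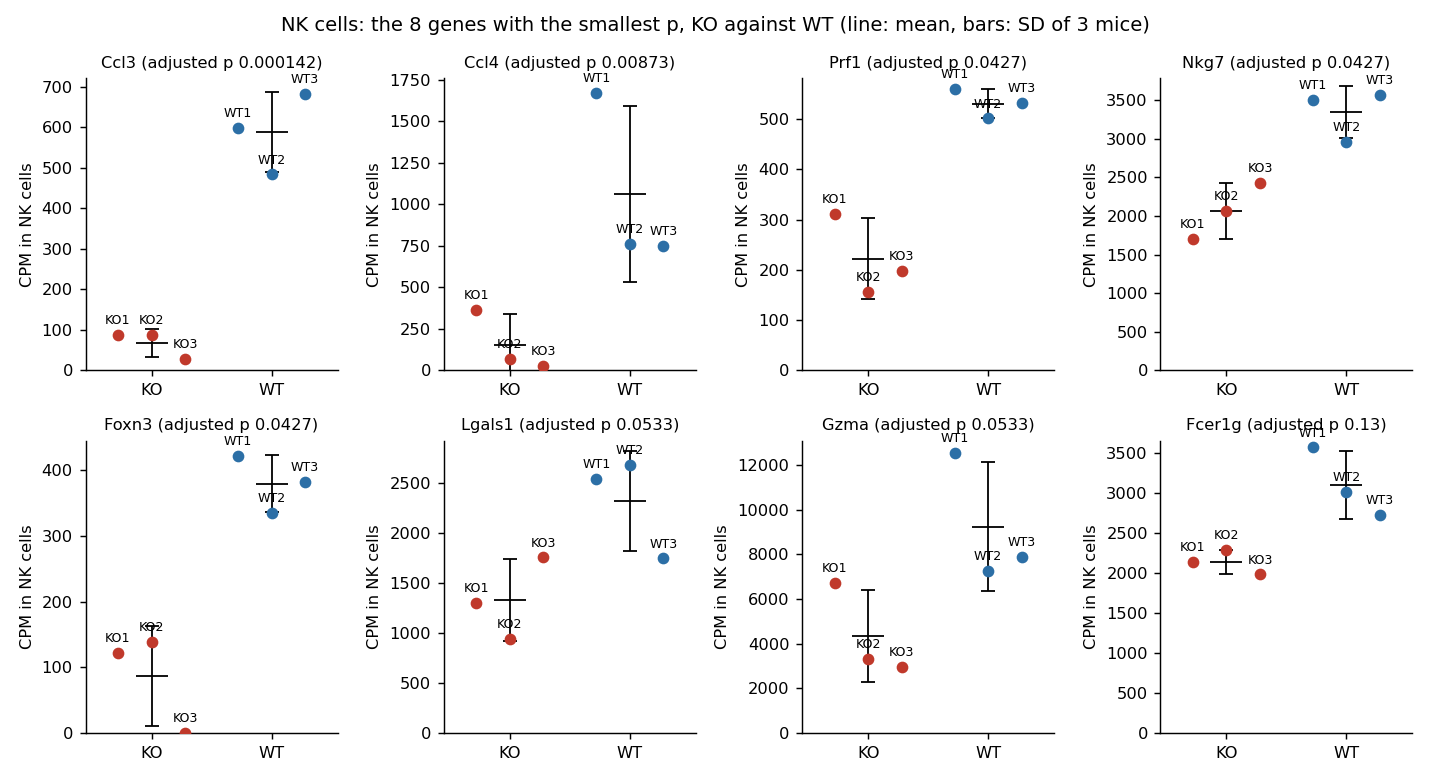
CPM in the NK cells of each mouse for the 8 genes of smallest p, KO left of WT, with the mean and SD of 3 mice and edgeR's adjusted p. For Ccl3 the KO mice lie at 28.3 to 86.8 CPM and the WT mice at 483 to 681 CPM.

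Few members of the gene groups were deep enough to test. Of 11 listed cytokine and chemokine genes 5 were tested, and 2, Ccl3 and Ccl4, passed. Xcl1 had 225, 278 and 425 CPM in the KO mice and 499, 427 and 515 CPM in the WT mice (adjusted p = 0.281). Ccl5 had 7074, 11194 and 4953 CPM in KO, against 12028, 12507 and 10771 CPM in WT mice (adjusted p = 0.281). Ifng, the signature cytokine of NK cells, was too sparse for the test, with 6 UMIs in the KO mice and 23 in the WT mice.

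Of 10 genes of immature NK cells, 6 were tested and none passed, although all 6 had a positive log2 fold change, with a median of 0.80. Of all 779 tested genes, 46.2% were above 0 and 53.8% below. Il7r had 173, 434 and 509 CPM in the KO mice, against 53.7, 167 and 283 CPM in the WT mice (log2 fold change 1.34, edgeR adjusted p = 0.293). Emb had 381, 330 and 396 CPM against 84.4, 186 and 266 CPM, without overlap (1.22, adjusted p = 0.209). The 8 genes listed for type 1 innate lymphoid cells, relatives of NK cells that also carry Il7r, summed to 260, 590 and 906 CPM in the KO mice and 199, 279 and 499 CPM in the WT mice, and whether they bear on these levels was not tested. The sum over the 10 immature NK genes was 2601, 2812 and 2632 CPM in the KO mice and 1465, 1840 and 2310 CPM in the WT mice. Of all tested genes, 16.9% had no overlap between the genotypes.

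Of 10 genes of mature NK cells, 4 were tested, 2 above and 2 below 0, and none passed. Zeb2 had 156, 243 and 170 CPM in the KO mice, against 407, 390 and 316 CPM in the WT mice (-0.95, edgeR adjusted p = 0.209). The sum over that list was 3190, 1996 and 2604 CPM in the KO mice and 4564, 3977 and 3308 CPM in the WT mice, without overlap. Of 17 transcription factor genes 10 were tested and none passed, with 9 below 0 and a median log2 fold change of -0.45. Tbx21 had 69.4, 121 and 142 CPM in the KO mice, against 245, 186 and 233 CPM in the WT mice (-1.08, adjusted p = 0.247). Eomes overlapped, with 86.8 to 340 CPM in KO and 116 to 353 CPM in WT mice, and Ets1, an activator of early NK development, ran the other way, with 485 to 651 CPM in KO and 279 to 449 CPM in WT mice (adjusted p = 0.297).

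No receptor gene passed. Ncr1 and Klrk1 helped to choose the cells in both genotypes, so their levels are given as a description. Ncr1 had 277, 486 and 594 CPM in the KO mice and 453, 520 and 449 CPM in the WT mice (log2 fold change -0.10 ± 0.26), and Klrk1 509 to 590 CPM in KO and 482 to 576 CPM in WT mice (0.01 ± 0.20). Of 11 Ly49 genes 4 were tested and none passed, with a median log2 fold change of -0.34. Of 18 other receptor genes 3 were tested and none passed. Il2rb, the interleukin-2 and interleukin-15 receptor chain, had 625 to 728 CPM in KO and 632 to 748 CPM in WT mice (-0.07 ± 0.18). Of 15 immediate-early and stress genes 8 were tested, all 8 below 0 and none passing. Their list summed to 3260, 3593 and 2519 CPM in the KO mice and 4457, 4349 and 4172 CPM in the WT mice. Fos, a gene that also responds to cell handling, had 104, 243 and 28.3 CPM against 322, 335 and 166 CPM (adjusted p = 0.361). Whether handling bears on the other differences was not tested.

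**Figure D5:**
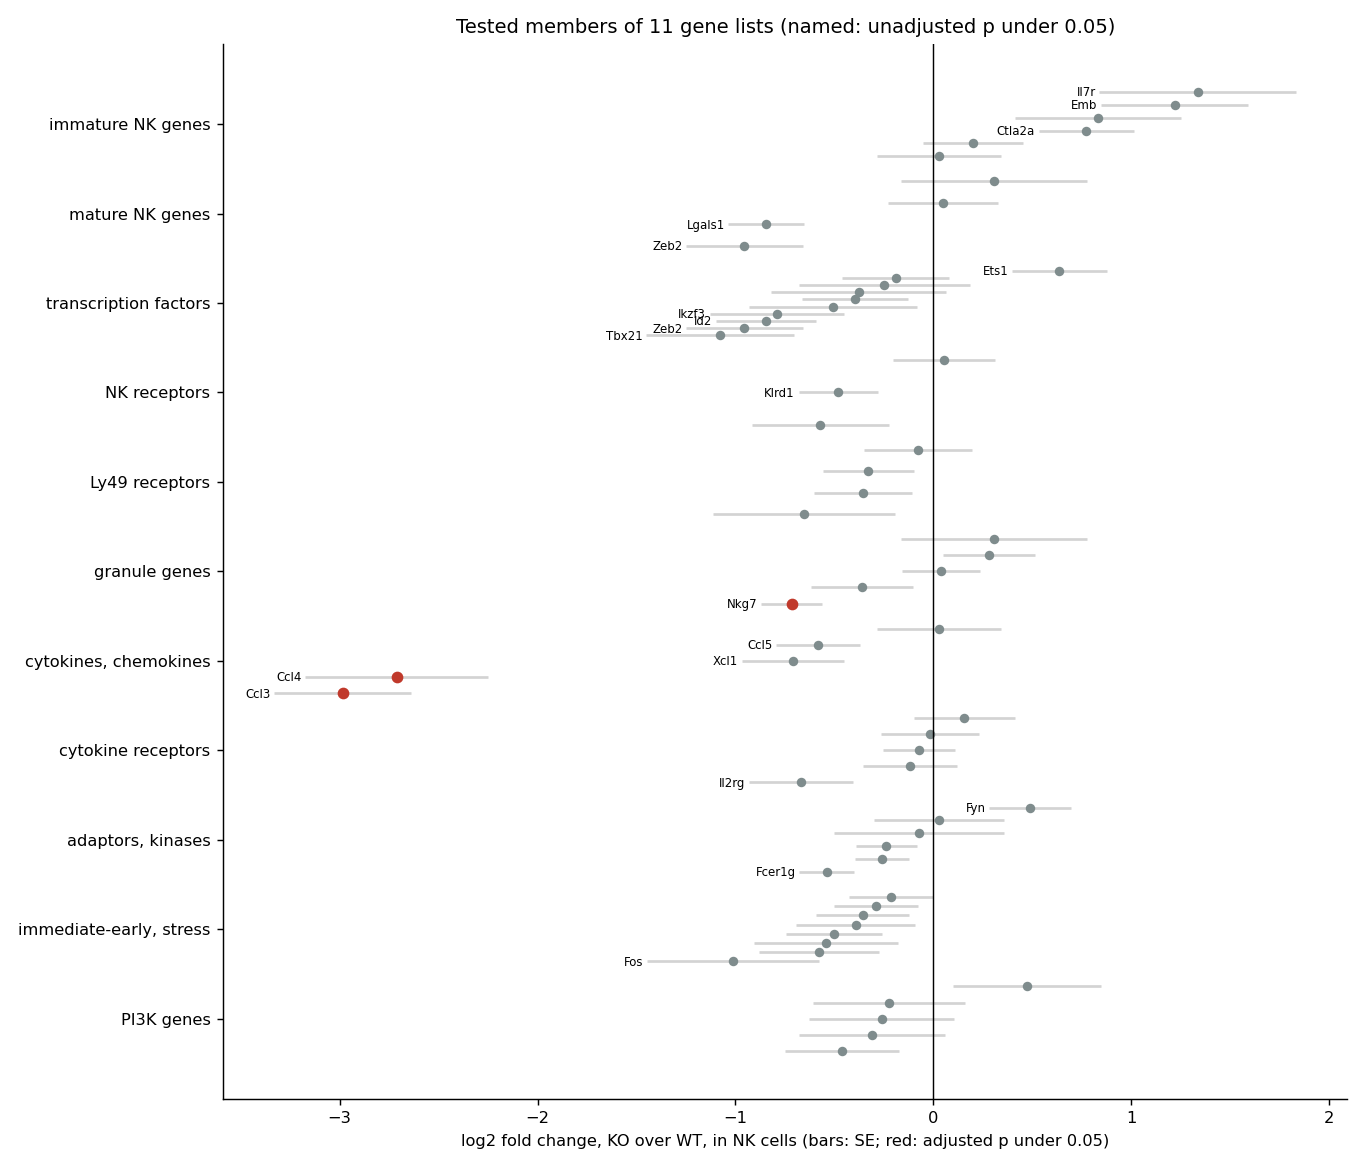
Log2 fold changes, KO over WT, of the tested members of 11 gene lists in NK cells, with SE bars from edgeR. Red points passed an adjusted p of 0.05 (Ccl3, Ccl4 and Nkg7), and named grey points had an unadjusted p under 0.05: immature NK genes lie right of 0, and Zeb2, Tbx21 and Id2 left of it.

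Ccl5 T cells of the same mice were fitted in the same way, and the difference between the populations was tested itself. Of 2629 tested genes 1, or 0.038%, passed: Hspa1b, a heat-shock chaperone, with 21.1 CPM in KO and 150 CPM in WT T cells (log2 fold change -2.75 ± 0.41, edgeR adjusted p = 0.00282). Hspa1b was also lower in KO without overlap in NK cells, where it was too sparse for the fit (0, 17.4 and 28.3 CPM in KO, against 115, 74.3 and 49.9 CPM in WT mice). In all other cells it had 24.2, 72.5 and 53.6 CPM in KO, against 164, 212 and 259 CPM in WT mice. The part of this stress gene's difference in the other results was not tested. At an unadjusted p under 0.05 the share was 6.35%. Ccl4 had 67.2, 115 and 0 CPM in KO T cells and 50.3, 37.9 and 29.8 CPM in WT T cells (0.87 ± 0.55, adjusted p = 0.871). The difference between the 2 genotype effects, fitted with the mouse as a block, passed for 2 of 2520 genes, or 0.0794%: 1 lower and 1 higher (0.0397% each), with 6.83% at an unadjusted p under 0.05. For Ccl4 it was -3.36 ± 0.55 (edgeR adjusted p = 0.000936), and without KO2 -2.11 (0.628). For S100a6, a calcium-binding protein of effector lymphocytes, it was 1.98 ± 0.43 (adjusted p = 0.0435): 871 CPM in KO and 875 CPM in WT NK cells, against 127 CPM in KO and 424 CPM in WT Ccl5 T cells. This call was lost without KO1 (0.0731), KO2 (0.699) or WT1 (0.239).

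For Foxn3 the difference of effects was -1.99 (edgeR adjusted p = 0.0741), for Nkg7 -0.75 (0.103) and for Ccl3 -2.56 (0.474), so these were not shown to differ between the populations. Nkg7 had 913 CPM in KO and 873 CPM in WT Ccl5 T cells, and Foxn3 245 CPM and 232 CPM there. Lgals1 was at a lower mean in KO in both populations without passing in either, at 209 CPM in KO and 470 CPM in WT Ccl5 T cells (adjusted p = 0.0811).

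Pik3cg transcripts were few and overlapped between the genotypes. NK cells had 1, 4 and 2 Pik3cg UMIs in KO1, KO2 and KO3 and 6, 2 and 5 in WT1, WT2 and WT3, or 17.3 to 69.4 CPM and 37.2 to 83.1 CPM. Since the deleted segment is not given, reads from the rest of the gene leave the labels unchecked. Of 19 PI3K pathway genes 5 were tested in NK cells and none passed. Pik3cd, the delta catalytic subunit, averaged 273 CPM in KO and 208 CPM in WT NK cells (0.47 ± 0.38), and Pik3r5, the p101 partner of p110 gamma, 175 CPM and 192 CPM (-0.22 ± 0.38). Pik3r5 stood at 184 CPM in NK cells, 118 CPM in Ccl5 T cells and 22.7 CPM in all other cells, and was higher in NK cells than in Ccl5 T cells of all 6 mice.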

How the data were processed

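Gene expression, B cell receptor and hashtag libraries of 2 droplet lanes were used. The deposited gene expression values are raw UMI counts per gene and barcode, with Cell Ranger 7.0.1 named in the file headers and mm10 in the submitters' processing notes. Contig UMIs are raw counts in the deposited receptor tables. The authors' hashtag calls assign mice (calling rule not given in the sources used), numbered in hashtag order within each genotype. Antibody features were left out of gene counts.

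Both lanes were summed per mouse (n = 3 per genotype; separate animals) and fitted with edgeR 4.0.16 (TMM, filterByExpr, quasi-likelihood, two-sided, Benjamini-Hochberg over all tested genes; SE is the size of the log2 fold change divided by root F). DESeq2 1.42.0 was an alternative. CPM are relative to all gene UMIs of the summed cells. Shares were compared with exact permutation tests over 20 assignments. Intervals are Clopper-Pearson and cover counting error only. Scrublet (scanpy 1.11.5, score over 0.376) called 140 retained cells. Promoters came from RefSeq; 211 of 285 listed genes had an entry. Genes named were members of the lists, Pik3cg, those past the threshold (or the 6 of smallest p where fewer passed) and the 12 largest and 12 smallest NK to Ccl5 T ratios over at least 100 CPM (without rule, immunoglobulin, receptor segment, mitochondrial and predicted genes). Members, lists and tests were chosen with earlier results of these data known.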

Additional observations from a re-analysis of the deposited data

Results flagged for a closer look

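The genotype effect differed between NK cells and Ccl5 T cells for Ccl4, by -3.36 on the log2 scale (edgeR adjusted p = 0.000936). Ccl4 averaged 154 CPM in KO and 1061 CPM in WT NK cells, against 60.6 CPM in KO and 39.3 CPM in WT Ccl5 T cells. It also differed for S100a6, by 1.98 (adjusted p = 0.0435), which was lower in KO than in WT Ccl5 T cells and near equal in NK cells. Without the mouse as a block, the adjusted p was 0.125 for Ccl4 and 0.222 for S100a6.

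Outside the retained cells, 14 of 3902 barcodes with several hashtags (0.359%) met the same gene rule, against 151 of 19230 retained cells (0.785%). They have no single mouse and entered no comparison. Groups of 3 mice were not tested for outliers.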

How the results depend on the processing

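The share of NK cells in KO over WT was -0.88 on the log2 scale and was below 0 of all retained cells in each alternative run. It was -0.28 of cells without Cd79a and -0.21 of T cells, and leaving out 1 mouse gave -1.09 to -0.34, the last without WT1. Without WT1 the difference was above 0 on 2 denominators, 0.669 percentage points of cells without Cd79a and 1.33 per 100 T cells. The 5 genes called in NK cells became 2 with at least 1000 UMIs, 2 without cells with Trac, Cd4, Cd8a or Cd8b1, 2 with RLE factors, 1 with DESeq2, 8 with any gene of at least 1 UMI, and 0 in lane 1 alone (smallest adjusted p 0.0503, 27 genes under an unadjusted 0.05). Among alternatives added after seeing the data, the 4 receptor genes gave 3, removal of the 2 extreme cells 8 and removal of Il7r cells 4 (Ccl3, Ccl4, Foxn3 and Lgals1, the last at an adjusted p of 0.00355). Leaving out 1 mouse gave 1 to 6, with Ccl3 alone without WT1 or WT3. Ccl3 passed in 18 of 19 alternatives, Ccl4 in 15, Nkg7 in 9, Prf1 in 7, and Foxn3 in 8 of 17; all kept their direction. Gzmb, 0.31, was -1.83 without the 2 extreme cells and -1.32 without KO1 (leaving out 1 mouse: -1.32 to 0.80). The single Ccl5 T cell call became 25 with any gene of at least 1 UMI, 4 with Cd3 of at least 1, and 1 to 9 leaving out 1 mouse. The 2 calls of the difference became 9, 0 with Cd3 of at least 1, 0 without the block (180 genes under an unadjusted 0.05), and 0 to 5 leaving out 1 mouse. The causes were not tested. Depth limits the rest: 13 to 22 KO cells per mouse leave most listed genes untested. No paired analysis was possible because KO and WT mice share no number in the labels.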

Other observations

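Of 23 interferon-stimulated genes, 6 were lower in NK cells than in Ccl5 T cells in all 6 mice, none was higher in all 6, and 17 varied in direction. Of all genes of at least 100 CPM, 10.3% were lower in all 6. The 23 genes were counted at any level, without that floor. Most of the gap in the sum lay in Ly6c2 (369 CPM in NK and 1599 CPM in Ccl5 T cells) and Ifi27l2a (26.2 and 841 CPM), while Irf7 averaged 71.6 CPM in NK and 45.9 CPM in Ccl5 T cells. The 23 genes summed to 1994, 1093 and 1415 CPM in KO1, KO2 and KO3 and to 936, 762 and 864 CPM in WT1, WT2 and WT3, against 2325 to 6715 CPM in Ccl5 T cells. The genotypes did not overlap, which was not tested. KO1 stood apart in all other cells too, with 5188 CPM there, against 1360 to 2800 CPM in the other 5 mice. Isg15, a ubiquitin-like modifier, had 14, 5 and 0 UMIs in the KO mice and 3, 1 and 0 in the WT mice. Irf7, the factor that amplifies interferon responses, had 8, 3 and 6 UMIs against 2, 2 and 1. In every mouse but KO1 Ly6c2 was the most counted gene of the list. It was also the only member deep enough for the fit, and it did not pass (log2 fold change 0.03, edgeR adjusted p = 0.999).

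Dscam, in 27 NK cells, was unevenly spread: it had 6, 21 and 23 UMIs in KO1, KO2 and KO3 and 16, 11 and 32 in WT1, WT2 and WT3. In KO3 a single cell held 16 of the 23.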
